A study of Mus musculus with 4 samples.

Results

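The 10 genes Pecam1, Cdh5, Kdr, Tek, Tie1, Flt1, Emcn, Esam, Cldn5 and Sox17 encode receptors, junction proteins and a transcription factor of endothelial cells. They were chosen by name, with no threshold on their signals but with earlier results of these data known. Each was found by a transcript cluster (a probe set that covers a transcript) paired with that gene alone. All 10 had exactly 1 such cluster, among 19938 genes with a cluster of a single symbol. Gene expression was measured on Affymetrix whole-transcript arrays in 4 sorted mouse populations, with 1 array each and no replicate. The fetal pair was CORIN+ and CORIN- cells of the ventral mesencephalon (VM) of C57BL/6N fetuses at E11.5. The ESC-derived pair came from day 9 of neural differentiation of a 129SVEV embryonic stem cell (ESC) line with GFP at the Lmx1a locus. It was CORIN+LMX1A::GFP+ cells, called cultured CORIN+ cells here, and CORIN-LMX1A::GFP+ cells, called cultured CORIN- cells. Both cultured populations were therefore GFP+, while the fetal cells were sorted with the CORIN antibody alone. The fetal VM holds vessels, blood and meninges beside neural tissue, whereas the cultured aggregates have no circulation. CORIN is a surface protease of the floor plate, and the study compared these populations to find surface markers of midbrain dopaminergic progenitors. Corin itself was 17.7-fold higher in fetal CORIN+ than in fetal CORIN- cells and 3.90-fold higher in cultured CORIN+ than in cultured CORIN- cells.

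Endothelial cells line blood vessels. VEGF binds the receptor tyrosine kinases Kdr (VEGFR2), which carries most of its signal, and Flt1 (VEGFR1), which binds it tightly and restrains it. Angiopoietins bind Tek (Tie2), and Tie1 is its partner without a well-defined ligand of its own. Cdh5 (VE-cadherin) builds the adherens junctions between endothelial cells, Cldn5 seals their tight junctions in brain vessels, and Pecam1 and Esam are immunoglobulin adhesion molecules at the same contacts. Emcn (endomucin) is a sialomucin of the endothelial surface, and Sox17 is a transcription factor of arterial endothelium. Vessels grow into the neural tube from a plexus in the meninges around it. Most of these genes are not used by endothelium alone. Pecam1 also marks leukocytes and platelets, Esam platelets, Flt1 monocytes, and Sox17 the endoderm.

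Cdh5 and Emcn were higher in fetal CORIN+ than in fetal CORIN- cells, and both were lower in cultured CORIN+ than in cultured CORIN- cells. In the measured signals these 2 of the 10 genes passed 2-fold in either pair, and they passed it in both, in opposite directions. Both were at the level of silent genes in cultured CORIN+ cells. With that level as a floor, Cdh5 was at least 2.91-fold lower and Emcn at least 1.28-fold lower in cultured CORIN+ cells, so that Cdh5 alone passed 2-fold in both pairs. The median log2 fold of the 10 genes was 0.42 in the fetal pair and -0.41 in the ESC-derived pair, against -0.040 and 0.0021 over all genes. Log2 folds within a pair are CORIN+ minus CORIN-. With 1 array per population no fold has an error or a test, and fewer cells of a type cannot be told apart from less RNA per cell.

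The level of a silent gene was read from 1035 clusters of olfactory receptors, which neither neural nor endothelial cells are expected to use. Their median log2 signal was between 5.50 and 5.54 in the 4 arrays, and their 95th percentile was 6.90 and 6.96 in the fetal CORIN+ and CORIN- arrays and 6.84 in both cultured arrays. The central 95% of their log2 folds ran from -0.30 to 0.19 in the fetal pair and from -0.27 to 0.23 in the ESC-derived pair. This range serves as a yardstick for dim clusters and is not replicate error. Of the 10 genes, 9 lay above the olfactory 95th percentile in fetal CORIN+ cells, 8 in fetal CORIN- cells, 5 in cultured CORIN+ cells and 8 in cultured CORIN- cells. Over all clusters the share above it was nearly constant, from 67.0% to 68.2% of an array. That level is a low bar, since the endoderm gene Hnf4a had log2 signals from 7.43 to 7.61 in the 4 arrays with hardly any change between them. The 10 genes had a median array percentile of 45.1 in fetal CORIN+ cells, 38.8 in fetal CORIN- cells, 33.2 in cultured CORIN+ cells and 43.6 in cultured CORIN- cells. An array percentile is the position of a signal among all 28856 clusters of the array, and since probes differ in how brightly they bind, it does not rank one gene against another. Most endothelial genes were thus measured in the lower part of the signal range, and Sox17 did not exceed the silent level in any array. By contrast, the neural progenitor genes Sox1, Sox2, Sox3, Nes, Fabp7, Msi1, Foxa2 and Otx2 all exceeded it in every array, with log2 signals of 8.52 or more.

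**Figure D1:**
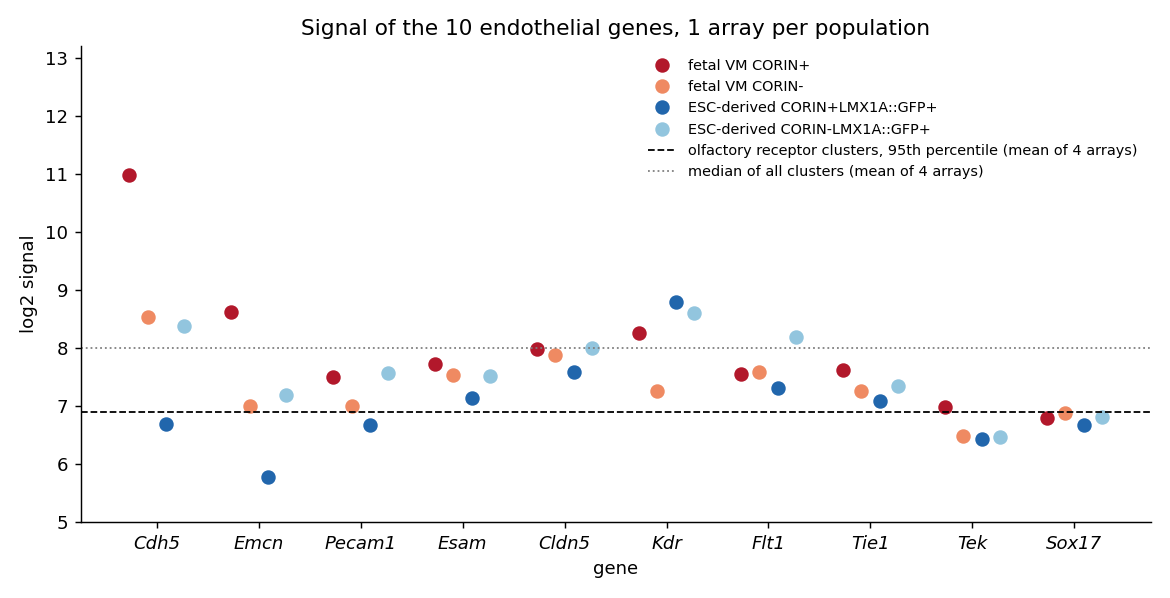
Log2 signal of each gene in fetal CORIN+, fetal CORIN-, cultured (ESC-derived, LMX1A::GFP+) CORIN+ and cultured CORIN- cells, 1 point per array with no error bars. The dashed line is the 95th percentile of olfactory receptor clusters and the dotted line the median of all clusters, each averaged over the arrays. Cdh5 stands apart in fetal CORIN+ cells at 10.98, while Sox17 lies between 6.67 and 6.88 in all arrays.

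Among the junction and adhesion genes, Cdh5 differed most between arrays. Its log2 signal was 10.98 in the fetal CORIN+ array and 8.54 in the fetal CORIN- array, and it was 6.68 in cultured CORIN+ cells and 8.38 in cultured CORIN- cells. These are array percentiles of 88.0, 57.4, 29.4 and 54.7 in the same order of cells. Cdh5 was thus 5.45-fold higher in the fetal CORIN+ array, the 63rd highest fold of 19938 genes, and 3.24-fold lower in the cultured CORIN+ array, the 21st lowest fold. Its signal in cultured CORIN+ cells was below the olfactory 95th percentile, and raising it to that percentile leaves the bound of at least 2.91-fold. Both CORIN- populations held nearly the same signal, and the CORIN+ populations lay on either side of them.

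Pecam1 had log2 signals of 7.51 and 7.0 in fetal CORIN+ and CORIN- cells, and of 6.67 in cultured CORIN+ cells and 7.58 in cultured CORIN- cells. It was 1.42-fold higher in the fetal CORIN+ array and at least 1.67-fold lower in the cultured CORIN+ array (1.87-fold as measured). Its cultured CORIN+ signal lay below the olfactory 95th percentile, and its fetal CORIN- signal exceeded it by only 0.038. Esam had 7.72 and 7.53 in fetal CORIN+ and CORIN- cells, and 7.13 and 7.52 in cultured CORIN+ and CORIN- cells. Esam therefore had the same pair of directions as Cdh5 with much smaller log2 folds, 0.19 in the fetal pair and -0.38 in the ESC-derived pair. Cldn5 had 7.99 and 7.88 in fetal CORIN+ and CORIN- cells, and 7.58 and 8.01 in cultured CORIN+ and CORIN- cells. Its log2 fold was inside the olfactory range in the fetal pair (0.11) and below it in the ESC-derived pair (-0.43). The blood-brain barrier claudin thus did not move with Cdh5 in the fetal VM by more than silent genes do.

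Emcn, like Cdh5, was highest in fetal CORIN+ cells and lowest in cultured CORIN+ cells. Its log2 signal was 8.62 in the fetal CORIN+ array and 7.0 in the fetal CORIN- array, and it was 5.78 in cultured CORIN+ cells and 7.19 in cultured CORIN- cells. It was 3.06-fold higher in the fetal CORIN+ array, where it ranked 253rd, and 2.67-fold lower in the cultured CORIN+ array, where it ranked 36th from the bottom. In fetal CORIN- cells it exceeded the olfactory 95th percentile by only 0.040 on the log2 scale, and in cultured CORIN+ cells it lay 1.06 under it. As a bound, Emcn was at least 1.28-fold lower in cultured CORIN+ cells. Sox17 had log2 signals of 6.80, 6.88, 6.67 and 6.82 in fetal CORIN+, fetal CORIN-, cultured CORIN+ and CORIN- cells. These lie within 0.21 of each other and no difference between any of them can be read.

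The receptors did not share one pattern. Kdr had a log2 signal of 8.25 in the fetal CORIN+ array and 7.26 in the fetal CORIN- array, and of 8.80 in cultured CORIN+ cells and 8.60 in cultured CORIN- cells. At a log2 fold of 0.99 in the fetal pair (1.99-fold) it lay just under the 2-fold threshold, and it passed it, at 1.03, when folds were centred on the median of all clusters. It ranked 638th. In the ESC-derived pair its log2 fold of 0.20 was inside the olfactory range, and Kdr was the 1 gene of the 10 whose signal was not lower in cultured CORIN+ cells. Its 3 other arrays all exceeded the fetal CORIN- array. Flt1, the other VEGF receptor, had 7.55 and 7.58 in fetal CORIN+ and CORIN- cells, and 7.30 and 8.18 in cultured CORIN+ and CORIN- cells. Flt1 was hence flat in the fetal pair, with a log2 fold of -0.034, and 1.84-fold lower in the cultured CORIN+ array. The VEGF receptors therefore lay outside the olfactory range in different pairs, Kdr in the fetal VM and Flt1 in culture. The difference between the receptors was not tested.

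Tek had log2 signals of 6.98 in the fetal CORIN+ array and 6.49 in the fetal CORIN- array, and of 6.43 in cultured CORIN+ cells and 6.47 in cultured CORIN- cells. Only the fetal CORIN+ value exceeded the olfactory 95th percentile, by 0.076. Tie1 had 7.62 and 7.26 in fetal CORIN+ and CORIN- cells, and 7.09 and 7.34 in cultured CORIN+ and CORIN- cells. The log2 folds of the fetal pair were 0.49 for Tek and 0.36 for Tie1, both above the olfactory range, although the bound for Tek, whose fetal CORIN- signal is below the silent level, is only 0.014. Those of the ESC-derived pair were -0.036 and -0.25, both inside it. Tie1 was thus higher in fetal CORIN+ cells by less than 1.5-fold, while for Tek hardly any difference can be read above the silent level. Neither the angiopoietin receptor nor its partner differed in culture by more than silent genes did.

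Counted by the sign of the measured fold alone, 8 of the 10 genes were higher and 2 lower in fetal CORIN+ than in fetal CORIN- cells. In the ESC-derived pair 1 was higher and 9 lower in cultured CORIN+ cells. These signs include Sox17 in both pairs and Tek in the ESC-derived pair, which were at the silent level in both arrays compared. Shares of all genes by sign alone were not counted, and the medians over all genes were -0.040 and 0.0021. At least 2-fold, 2 genes were higher and 0 lower in the fetal pair, where 3.16% of all genes were higher and 0.456% lower by that rule. In the ESC-derived pair 0 were higher and 2 lower (1 with the floor), where 0.376% of all genes were higher and 0.522% lower. Taking the olfactory range as the limit, 7 genes lay above it in the fetal pair (15.8% of all genes) and 6 below it in the ESC-derived pair (8.51% of all genes). The range comes from dim clusters, which vary less than clusters at large. The spread of the folds, as a scaled median absolute deviation on the log2 scale, was 0.103 over olfactory clusters and 0.177 over all genes in the fetal pair, and 0.103 and 0.157 in the ESC-derived pair.

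By measured sign, a lower signal in the ESC-derived pair together with a higher one in the fetal pair was found for 7 of the 10 genes. They were Cdh5, Emcn, Pecam1, Esam, Cldn5, Tie1 and Tek, although Tek was at the silent level in both cultured arrays. Over all genes this combination of signs had a share of 18.1%. Outside the olfactory range in both pairs were 4 of the 10 (Cdh5, Emcn, Pecam1 and Esam), against 2.12% of all genes. Esam was a borderline case, since its fetal log2 fold and the edge of the range both round to 0.19. Past 2-fold in both pairs, as measured, were Cdh5 and Emcn, against 0.0903% of all genes. That share amounts to 18 genes, which include the endothelial and progenitor surface protein Cd34 and the mesenchyme genes Foxc1, Foxc2, Lum and Tbx18. None of the 10 was higher in the ESC-derived pair and lower in the fetal pair. The signal of Kdr was higher in both pairs and that of Flt1 lower in both, although the fetal log2 fold of Flt1 became 0.0032 when folds were centred on the median of all clusters. Sox17 is given no direction, since it did not exceed the silent level.

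**Figure D2:**
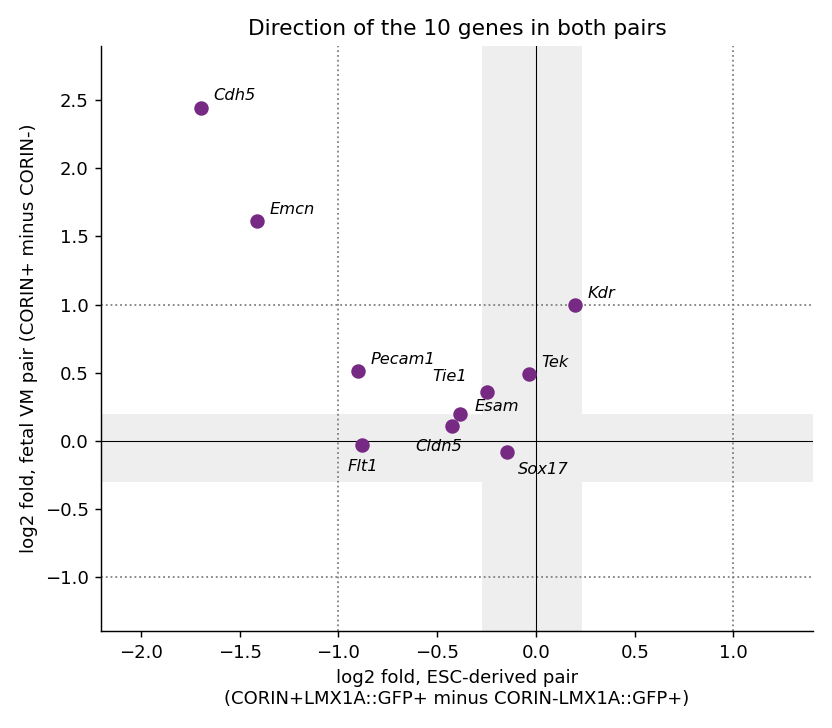
Log2 fold of the 10 genes in the ESC-derived pair (horizontal axis) and the fetal VM pair (vertical axis), 1 array per population. Grey bands are the central 95% of folds of olfactory receptor clusters and dotted lines mark 2-fold. Cdh5 (-1.70, 2.45) and Emcn (-1.41, 1.62) lie in the upper left corner, and Kdr lies close to the 2-fold line of the fetal VM alone.

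The fetal arrays were then set against the ESC-derived arrays. Strain, source and age differ together here, and the sort differs too, so their parts cannot be told apart. In CORIN+ cells 9 of the 10 genes had a higher signal in the fetal array than in the cultured CORIN+ array. The share of all genes by this sign was not counted. As measured, 7 of the 10 lay above the olfactory range of this comparison and 1 below it. Over all 19938 genes 2902 lay above it and 4573 below it. Tek is among the 7, although its bound is a log2 difference of only 0.14. The median log2 difference of the 10 was 0.54, against -0.022 over all genes. Cdh5 was at least 17.7-fold higher (19.7-fold as measured) and Emcn at least 3.43-fold higher (7.15-fold as measured), since both were below the olfactory 95th percentile in cultured CORIN+ cells. These were the 2 genes at least 2-fold higher, where 4.37% of all genes were at least 2-fold higher and 2.98% lower. The other 7 had measured log2 differences from 0.13 (Sox17, at the silent level on both sides) to 0.83 (Pecam1), and Kdr alone was lower, by 1.46-fold. In CORIN- cells the picture was different. The log2 difference between fetal CORIN- and cultured CORIN- cells was 0.16 for Cdh5 and -0.19 for Emcn, and the median of the 10 genes was -0.10. Kdr was 2.54-fold lower in fetal CORIN- cells and was the 1 gene past 2-fold, where 4.54% of all genes were lower and 3.52% higher by that rule. Flt1 and Pecam1 followed at 1.52-fold and 1.49-fold lower.

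**Figure D3:**
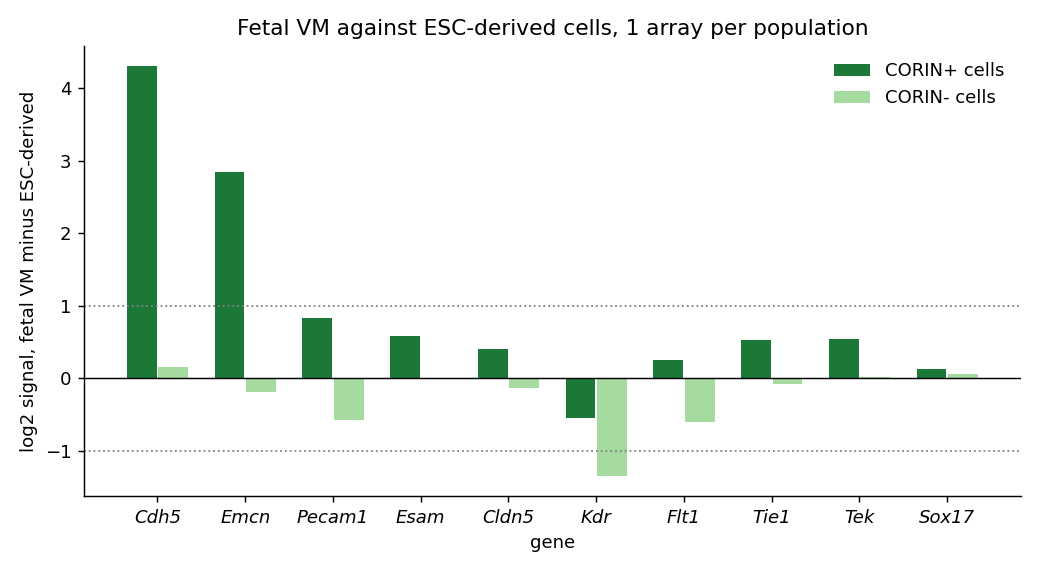
Difference in log2 signal between fetal VM and ESC-derived cells for each gene, for CORIN+ cells (dark) and CORIN- cells (light), 1 array per population with no error bars. Dotted lines mark 2-fold, and bars show measured signals without a floor. The CORIN+ bars of Cdh5 (4.30) and Emcn (2.84) tower over their CORIN- bars (0.16 and -0.19), and both Kdr bars point down.

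Genes with the most similar course over the 4 arrays were looked up for the 3 genes whose log2 signal ranged over at least 1 unit. Likeness was the Euclidean distance between the 4 log2 signals, each gene centred on its own mean. Cd34 was nearest to Emcn, at a distance of 0.091, and its log2 signals were 9.79 and 8.18 in fetal CORIN+ and CORIN- cells, and 7.06 and 8.36 in cultured CORIN+ and CORIN- cells. Six2 and Tnc came next, at 0.33 and 0.46. The genes nearest to Cdh5 were Srgn, a proteoglycan of blood cells, then the mesenchyme genes Lum and Tbx18, at distances of 0.54, 0.59 and 0.60. Kdr resembled none of these and was nearest to Slc31a2, Naaa and Tom1l1 (0.080 to 0.087). With 4 arrays such a likeness is a description only.

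Ligands and co-receptors of the same pathways were read by the same rules. Over all genes 3.16% were at least 2-fold higher and 0.456% lower in the fetal pair. In the ESC-derived pair 0.376% were higher and 0.522% lower. Of 12 VEGF and angiopoietin genes 1 was at least 2-fold higher and 0 lower in the fetal pair, and again 1 higher and 0 lower in the ESC-derived pair. By the olfactory range 7 of the 12 lay above it and 0 below it in the fetal pair, where 15.8% of all genes lay above. In the ESC-derived pair 2 lay above it and 3 below it, where 8.51% of all genes lay below. Vegfa, the main ligand of Kdr and Flt1, had log2 signals of 10.87 and 10.83 in fetal CORIN+ and CORIN- cells, and 11.73 and 11.64 in cultured CORIN+ and CORIN- cells. Nrp2 was 2.25-fold higher in the fetal CORIN+ array and Nrp1 2.27-fold higher in the cultured CORIN+ array. These neuropilins are co-receptors for VEGF and also receptors for semaphorins on neural cells. Angpt1, the ligand that activates Tek, was 1.96-fold higher in the fetal CORIN+ array and 1.42-fold lower in the cultured CORIN+ array.

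Of 23 other genes of the endothelial surface 6 were at least 2-fold higher and 0 lower in the fetal pair, and 0 higher and 2 lower in the ESC-derived pair. Their median log2 folds were 0.16 in the fetal pair and -0.22 in the ESC-derived pair. Over all genes 3.16% were at least 2-fold higher and 0.456% lower in the fetal pair. In the ESC-derived pair 0.376% of all genes were higher and 0.522% lower by that rule, here and for the lists that follow. By the olfactory range 11 of the 23 lay above it and 1 below it in the fetal pair, where 15.8% of all genes lay above. In the ESC-derived pair 0 lay above it and 9 below it, where 8.51% of all genes lay below. Cd34 was 3.05-fold higher in the fetal CORIN+ array and 2.47-fold lower in the cultured CORIN+ array. Eng, a co-receptor for TGF-beta on endothelium, was 2.82-fold higher and 1.71-fold lower in the same arrays. Lyve1 and Stab1 are receptors of lymphatic and sinusoidal endothelium that fetal macrophages also carry. In the fetal CORIN+ array Lyve1 was at least 11.8-fold higher (16.5-fold as measured) and Stab1 15.9-fold higher. Lyve1 was below the olfactory 95th percentile in fetal CORIN- cells. In the ESC-derived pair the log2 folds of Lyve1 and Stab1 were -0.014 and -0.13. Cd93 was at least 1.56-fold lower in the cultured CORIN+ array (2.03-fold as measured) and had a log2 fold of 0.53 in the fetal pair.
Of 13 endothelial transcription factors 2 were at least 2-fold higher and 1 lower in the fetal pair (3.16% and 0.456% of all genes). None reached 2-fold in the ESC-derived pair. By sign alone all 13 had a lower signal in cultured CORIN+ cells, a share not counted over all genes. Erg and Hhex were at the silent level in both cultured arrays. Below the olfactory range of the ESC-derived pair were 7 of the 13, against 8.51% of all genes. Fli1 and Ets1, ETS factors used by blood as well as endothelium, were 3.74-fold and 2.11-fold higher in the fetal CORIN+ array. Tal1, a factor of blood, endothelium and midbrain GABAergic neurons, was 2.26-fold lower there. Of 19 general junction genes 3 were at least 2-fold higher in the fetal pair, with 0 lower, and none reached 2-fold in the ESC-derived pair. The 3 genes were Cldn1 (3.28-fold), F11r (at least 1.62-fold, 2.16-fold as measured) and Cldn11 (2.0-fold), while Ctnnb1 and Ctnnd1, which bind the tail of Cdh5 and of other cadherins, had log2 folds of 0.05 and 0.05. None of 9 blood-brain barrier transporters reached 2-fold in either pair, with median log2 folds of 0.056 in the fetal pair and -0.11 in the ESC-derived pair.

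**Figure D4:**
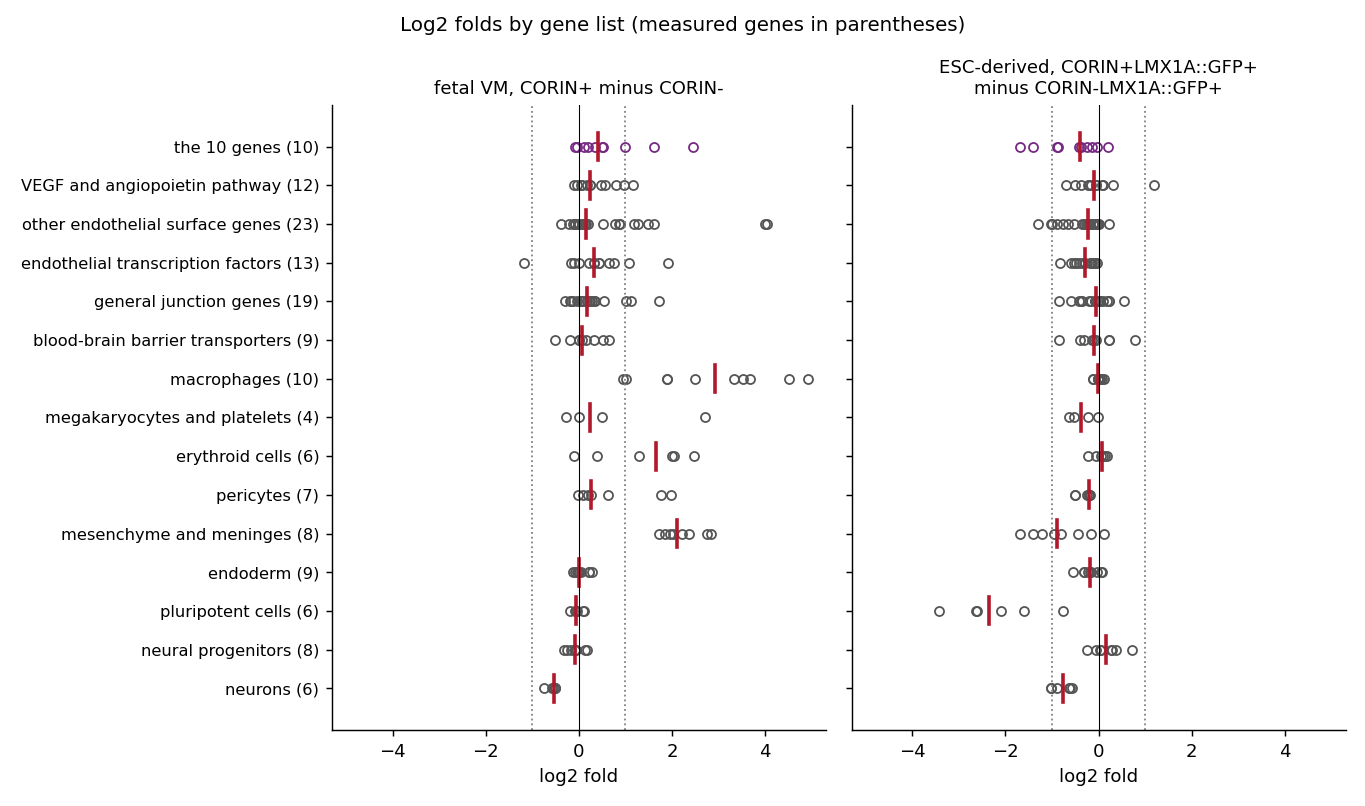
Log2 folds of the 10 genes and of the other gene lists, in the fetal VM pair (left) and the ESC-derived pair (right), 1 array per population. Circles are genes, red bars are medians and dotted lines mark 2-fold. The macrophage (2.91) and mesenchyme (2.12) medians of the fetal pair lie far to the right of that of the 10 genes (0.42), and the pluripotent median (-2.35) lies far to the left in the ESC-derived pair.

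Markers of other cells moved in the same arrays. In the fetal pair 9 of 10 macrophage genes and 8 of 8 genes of mesenchyme and meninges were at least 2-fold higher in CORIN+ cells, as measured. Over all genes that share was 3.16%, which also stands beside the erythroid, platelet and pericyte counts below. With the floor, Fcgr1 of the macrophage list was at least 1.71-fold higher (2.03-fold as measured). The summed linear signal was 10586.5 in the fetal CORIN+ array and 1085 in the fetal CORIN- array for the macrophage list, and 16972 and 3576 for the mesenchyme list. The 10 endothelial genes together summed to 3991 and 1753, and without Cdh5 to 1964 and 1382. Sums of different lists rest on different probes and are not set against each other. Of 10 macrophage genes 1 exceeded the olfactory 95th percentile in fetal CORIN- cells, where all 10 exceeded it in fetal CORIN+ cells. The erythroid list had 4 of 6 genes past 2-fold, all higher, with sums of 15304 and 3957, and Pf4, which fetal macrophages also express, was 6.54-fold higher as the 1 of 4 platelet genes past 2-fold. Of 7 pericyte genes 2, Anpep and Pdgfrb, were at least 2-fold higher, and 6 of the 7 had a higher signal. The other log2 folds were 0.63 for Abcc9, 0.26 for Notch3, 0.20 for Cspg4, 0.088 for Kcnj8 and -0.012 for Rgs5. Above the olfactory range were 5 of the 7 pericyte genes, against 15.8% of all genes. The part of these cells and of neurons in the fetal folds of the endothelial genes was not tested.
In the ESC-derived pair 8 of 10 macrophage genes were at the olfactory level in both arrays, and the median log2 fold of the list was -0.0065. Over all genes 0.522% were at least 2-fold lower in cultured CORIN+ cells. Of 8 mesenchyme genes 3 were lower by that rule, with sums of 2717 in cultured CORIN+ cells and 4306 in cultured CORIN- cells. Pluripotency genes were lower by 2-fold or more in 5 of 6 cases, with sums of 692 and 4033, and the 10 endothelial genes summed to 1519 and 2153, or 1416 and 1820 without Cdh5. The endoderm list, which shares the lineage where Sox17 is also used, had none of 9 genes past 2-fold in either pair and a median of -0.19 in the ESC-derived pair. All 6 neuron genes had a lower signal in the CORIN+ cells of both pairs, and 2 of them passed 2-fold in the ESC-derived pair. Their median log2 folds were -0.54 in the fetal pair and -0.77 in the ESC-derived pair. All 6 lay below the olfactory range in both pairs. Over all 19938 genes 1939 did so in the fetal pair and 8.51% in the ESC-derived pair. The part of mesenchyme, neurons and undifferentiated cells in the ESC-derived folds was not tested.

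Promoters are shown for Emcn, which differed in both pairs, and for the VEGF receptors Kdr and Flt1, which differed in 1 pair each. RefSeq sequences of 250 bases before to 50 bases after the annotated start (build GRCm38.p6) were matched for 6 of the 10 genes. Cdh5, Pecam1, Esam and Sox17 had no matched sequence, so the promoter of Cdh5 could not be shown. Capitals mark GGAAG or its reverse complement, a core bound by ETS factors such as Fli1 and Ets1. The windows are chr3:137340828-137341127 (plus strand) for Emcn, chr5:75978406-75978705 (minus strand) for Kdr and chr5:147725962-147726261 (minus strand) for Flt1.
Emcn: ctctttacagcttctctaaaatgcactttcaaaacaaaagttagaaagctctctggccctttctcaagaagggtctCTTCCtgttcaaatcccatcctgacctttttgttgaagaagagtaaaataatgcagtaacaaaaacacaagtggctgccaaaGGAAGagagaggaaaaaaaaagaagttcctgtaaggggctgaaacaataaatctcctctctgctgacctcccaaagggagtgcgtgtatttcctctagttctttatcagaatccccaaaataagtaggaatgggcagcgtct
Kdr: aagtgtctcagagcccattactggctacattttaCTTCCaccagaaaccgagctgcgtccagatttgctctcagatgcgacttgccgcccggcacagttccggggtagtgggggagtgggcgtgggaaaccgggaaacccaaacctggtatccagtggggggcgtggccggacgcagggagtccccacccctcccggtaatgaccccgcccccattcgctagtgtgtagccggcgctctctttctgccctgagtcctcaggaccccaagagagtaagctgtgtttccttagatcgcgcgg
Flt1: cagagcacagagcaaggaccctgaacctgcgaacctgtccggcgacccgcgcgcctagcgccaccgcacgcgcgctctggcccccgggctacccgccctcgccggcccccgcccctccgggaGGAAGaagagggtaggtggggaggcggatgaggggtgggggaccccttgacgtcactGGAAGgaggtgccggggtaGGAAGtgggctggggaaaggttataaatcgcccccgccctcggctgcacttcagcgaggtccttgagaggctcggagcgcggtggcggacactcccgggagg
The core was found 2 times in the Emcn window, 1 time in that of Kdr and 3 times in that of Flt1. It was found in 4 of the 6 matched promoters, against 71.4% of 32851 promoter windows of the same length, with a median of 1 match. Tie1 had 7 matches, and 2.06% of all windows had 5 or more, while Tek and Cldn5 had 0. The GATA core AGATAA, read on both strands, was found in 1 of the 6 (Tek), against 11.2% of all windows. The SOX core ACAAT was found in 2 of the 6 (Emcn and Tek), against 31.0%. Each motif was searched on its own on both strands, and matches of different motifs were allowed to overlap. A match is a description of the sequence, and no binding was measured here.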

How the data were processed

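RNA of the 4 sorted populations was amplified and labelled with a whole-transcript kit and read on 1 Affymetrix array each. The authors' deposited values are log2 signals of 28856 clusters. GeneSpring is the software named for the analysis. For the probe summarization, the normalization between arrays and the build, a statement is not given in the sources used here. No detection calls or background values were used. The deposited log2 signals run from 4.38 to 14.51, and the number of arrays, 1 per population, limits the precision of every value.

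Populations were taken from the sample labels. Clusters were named from the platform annotation, and symbols were updated through gene identifiers with the GRCm38.p6 RefSeq table, which left 21789 clusters with 1 symbol. A gene with several clusters was represented by the one with the highest mean signal. Log2 folds are differences of signals. No statistical test was run. The 10 genes and the lists (14 lists with 146 entries) were chosen with earlier results of these data known. Named list genes passed 2-fold in either pair, at most 4 per direction, and further genes were named after their values were seen. Alternatives were quantile normalization of the 4 arrays, centred folds, 32 added to linear signals, the mean over clusters of a gene, thresholds of 1.5-fold and 3-fold, and leaving out genes at the olfactory level. A floor at the olfactory 95th percentile of each array, which gives the folds written as at least a value, was added after seeing the data. The code for folds and counts was tested on simulated data with known folds. Python 3.11.15, numpy 2.4.6, pandas 2.3.3 and matplotlib 3.10.9 were used.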

Additional observations from a re-analysis of the deposited data

Results flagged for a closer look

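Cdh5 and Emcn went in opposite directions in the fetal and the ESC-derived pair by at least 1.5-fold in each, as measured. The log2 fold of the fetal pair exceeded that of the ESC-derived pair by 4.14 for Cdh5 and by 3.03 for Emcn. Both were below the olfactory 95th percentile in cultured CORIN+ cells, and with that floor Emcn was at least 1.28-fold lower there. With 1 array per population this difference between the pairs was not tested. Pecam1, with a difference of 1.41, did not reach 1.5-fold in the fetal pair.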

How the results depend on the processing

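Quantile normalization and centring of the folds left each count of the 10 genes within 1.5 times its value. Centring brought Kdr past 2-fold in the fetal pair (log2 fold 1.03), for a count of 3. The mean over clusters could change nothing, since each of the 10 genes has 1 cluster. At a threshold of 1.5-fold, 4 genes were lower in the ESC-derived pair, 4 were higher in the fetal array among CORIN+ cells and 2 were lower in the fetal array among CORIN- cells. At 3-fold, 1 gene (Cdh5) was lower in the ESC-derived pair, 1 was past the threshold in both pairs in opposite directions, and 0 were lower in the fetal array among CORIN- cells. Shares of all genes were not counted at 1.5-fold or 3-fold, so these counts show only how the 10 genes depend on the threshold. Leaving out genes at the olfactory level in both arrays compared, which removes Tek and Sox17 from the ESC-derived pair, gave a median log2 fold of -0.65 there. Cdh5, Pecam1 and Emcn pass this filter only through cultured CORIN- cells, where they are high, so a more negative median is built into it. With signals raised to the olfactory 95th percentile, chosen after seeing the data, 1 gene (Cdh5) was at least 2-fold lower in the ESC-derived pair and 1 passed 2-fold in both pairs in opposite directions. Of 160 folds of single genes under an alternative, 154 moved by less than the spread of all folds and 6 by more, all with 32 added to the linear signals. The ESC-derived log2 folds of Cdh5 and Emcn were then -1.44 and -1.04, and no gene past 2-fold changed direction. The 160 folds include those of the mean over clusters, which could not move. They also include centring, which shifted all folds of a comparison by the same constant, smaller than the spread. Only quantile normalization and the added 32 could therefore move a fold by more than the spread. No paired analysis was possible because each population has 1 array.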

Other observations

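Other genes of the same lists, chosen after their values were seen, differed between fetal VM and culture in both CORIN+ and CORIN- cells. Among CORIN+ cells 4.37% of all genes were at least 2-fold higher in the fetal array and 2.98% lower. Among CORIN- cells these shares were 3.52% and 4.54%. Calcrl, a receptor for adrenomedullin and CGRP, had log2 signals of 8.53 and 7.27 in fetal CORIN+ and CORIN- cells, and 9.94 and 10.84 in cultured CORIN+ and CORIN- cells. Aplnr, the apelin receptor, had 8.44 and 7.58 in the fetal cells, and 9.10 and 9.32 in the ESC-derived cells, in the same order. Aplnr was thus 1.58-fold lower in fetal CORIN+ cells, which is under 2-fold, and 3.35-fold lower in fetal CORIN- cells. Cldn6, a claudin of early epithelia, had 7.01 and 7.31 in the fetal cells, and 9.91 and 10.51 in the ESC-derived cells. Mfsd2a, a lipid transporter of brain endothelium, had 10.33 and 10.84 in the fetal cells, and 8.30 and 9.15 in the ESC-derived cells. Its signal was thus lower in both CORIN+ populations than in their CORIN- counterparts, unlike that of Cdh5.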
